A study of Mus musculus with 2 samples.

Results

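Basophils and mast cells of the mouse liver were described here in 2 single-cell RNA-seq libraries of non-parenchymal cells, 1 labelled Hep-ADKTg and 1 labelled Hep-ADKWT. A cell belonged to this population when it held at least 3 unique molecular identifiers (UMIs, each standing for 1 captured transcript) summed over Mcpt8, Cd200r3, Ms4a2 and Cpa3, and none of Cd3d, Cd3e, Cd3g or Cd79a. The cells were thus chosen by their measured UMIs of those genes, whose values are description only. They numbered 65 of 27814 cells kept after quality filters: 15 of 14853 in the Hep-ADKTg library and 50 of 12961 in the Hep-ADKWT library. They were set against the other leukocytes, kept cells with at least 1 UMI of Ptprc (which encodes CD45) that were not members, 5081 in Hep-ADKTg and 8801 in Hep-ADKWT.

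In Hep-ADKTg mice the albumin promoter drives adenosine kinase (Adk), the enzyme that phosphorylates adenosine to AMP, in hepatocytes, and Hep-ADKWT mice were their controls. Both groups were male, 5 months old and fed standard chow, and their livers were digested with collagenase before capture with 10x Genomics v3 chemistry. Each genotype gave 1 library, and the labels do not say whether that library came from 1 mouse or several. The 2 libraries therefore describe 2 cell suspensions and give no test of genotype: every interval below is a 95% interval that covers counting error only.

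Basophils and mast cells are granulocytes that carry the high-affinity IgE receptor FcεRI, a complex of the products of Fcer1a, Ms4a2 and Fcer1g. Crosslinking of receptor-bound IgE releases stored histamine and proteases, newly made leukotrienes, chemokines and type 2 cytokines such as interleukin-4. Basophils circulate and depend on interleukin-3 and the transcription factor GATA2, whereas mast cells mature in tissues under the control of the Kit receptor. In the mouse, Mcpt8 and Prss34 encode basophil proteases, whereas Cma1, Mcpt4 and Tpsb2 encode proteases of connective-tissue mast cells.

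The upstream sequences of the 4 marker genes are shown because these genes decided which cells entered, together with that of Fcer1a, the IgE receptor gene that the choice did not use. Mcpt8 (ENSMUSG00000022157, chr14:56082166-56085273, minus strand) encodes a granule protease. Cd200r3 (ENSMUSG00000036172, chr16:44943678-44981380, plus strand) encodes an activating receptor of the CD200 receptor family. Ms4a2 (ENSMUSG00000024680, chr19:11615523-11623719, minus strand) encodes the β chain of FcεRI. Cpa3 (ENSMUSG00000001865, chr3:20215620-20242181, minus strand) encodes a granule carboxypeptidase, and Fcer1a (ENSMUSG00000005339, chr1:173221284-173227214, minus strand) encodes the IgE-binding α chain. These gene coordinates are from GENCODE M21 on GRCm38, and all 5 genes are annotated as protein coding.

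The 120 bases before each RefSeq start site (GRCm38.p6) are printed 5′ to 3′ on the gene's strand. Capitals mark a match on either strand to the GATA motif bound by GATA2, searched as AGATAA, then as AGATAG, as well as with T in place of the first A (TGATAA, and also TGATAG).
Mcpt8, chr14:56085198-56085317, minus strand: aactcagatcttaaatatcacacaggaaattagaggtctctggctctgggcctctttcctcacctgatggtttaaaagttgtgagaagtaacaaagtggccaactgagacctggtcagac
Cd200r3, chr16:44943558-44943677, plus strand: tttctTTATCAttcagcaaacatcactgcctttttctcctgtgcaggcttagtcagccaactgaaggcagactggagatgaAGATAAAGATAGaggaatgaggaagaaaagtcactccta
Ms4a2, chr19:11623720-11623839, minus strand: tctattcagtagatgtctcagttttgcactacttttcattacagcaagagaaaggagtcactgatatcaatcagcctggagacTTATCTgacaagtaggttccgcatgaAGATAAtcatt
Cpa3, chr3:20242182-20242301, minus strand: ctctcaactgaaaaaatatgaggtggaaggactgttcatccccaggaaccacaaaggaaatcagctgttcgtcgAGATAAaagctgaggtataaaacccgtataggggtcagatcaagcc
Fcer1a, chr1:173227230-173227349, minus strand: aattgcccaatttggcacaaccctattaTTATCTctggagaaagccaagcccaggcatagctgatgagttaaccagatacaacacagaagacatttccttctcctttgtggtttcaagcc

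The window of Cd200r3 held 3 matches, that of Ms4a2 held 2, those of Cpa3 and Fcer1a held 1 each, and that of Mcpt8 held 0. In the longer RefSeq windows of 300 bases, which run from 250 before to 50 after the start site, 3 of the 4 marker genes had a match (75%). So did 9 of the 20 matched genes among the 25 leading genes described below (45%), against 33.0% of 27025 genes in all. A match is a description of letters and not evidence of binding.

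The Hep-ADKTg library held 96481752 UMIs over 17462 barcodes, and the Hep-ADKWT library held 97135016 UMIs over 15663 barcodes. The libraries shared 88 barcodes, 1 of which was that of a member. Adk reached 341 CPM (UMIs per 1000000 UMIs; interval 337 to 345) over all kept Hep-ADKTg cells, against 85.4 CPM (83.5 to 87.4) in Hep-ADKWT. Hepatocyte transcripts were also more abundant in the Hep-ADKTg library: the 29 listed hepatocyte genes reached 40568 and 49621 CPM in its members and other leukocytes, against 8658 and 7332 CPM in Hep-ADKWT. The sources do not say whether transgene transcripts are counted under Adk, so Adk was not tested as a check of the labels.

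Basophils and mast cells made up a smaller share of the Hep-ADKTg library. They were 0.101% (0.0565 to 0.167) of kept cells in Hep-ADKTg and 0.386% (0.286 to 0.508) in Hep-ADKWT, a ratio of 0.262 (0.137 to 0.474). Among leukocytes alone they were 0.294% (0.165 to 0.485) of 5096 cells in Hep-ADKTg and 0.565% (0.420 to 0.744) of 8851 cells in Hep-ADKWT, a ratio of 0.521 (0.272 to 0.943). Both shares were lower in Hep-ADKTg by more than counting error, but variation between animals was not measured. The share also depends on detection. Kept cells with at least 1000 UMIs were thinned to 1000 UMIs and the rule was applied anew. It was then met by 5 Hep-ADKTg and 34 Hep-ADKWT cells. Kept cells under 1000 UMIs were left out of this, 3588 in Hep-ADKTg and 1103 in Hep-ADKWT.

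Depth differed little between the members of the libraries. Hep-ADKTg members held 958 to 13154 UMIs with a median of 3753, and Hep-ADKWT members held 1339 to 8917 with a median of 4204.5. Other leukocytes had medians of 4295 UMIs in Hep-ADKTg and 5560 in Hep-ADKWT. Members gave a median of 1580 detected genes in Hep-ADKTg and 1643 in Hep-ADKWT, with median mitochondrial shares of 2.33% and 2.12%. Ptprc was found in 10 Hep-ADKTg members (66.7%) and 34 Hep-ADKWT members (68%), so a choice by Ptprc alone would have missed some of these cells.

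The marker sum that chose the cells was lower in Hep-ADKTg, with a median of 7 UMIs (range 3 to 70), than in Hep-ADKWT, with a median of 15.5 (3 to 62). A sum of at least 10 was reached by 5 Hep-ADKTg members (33.3%) and 39 Hep-ADKWT members (78%). Few cells lay near the threshold. Just inside it, with a sum of 3, were 1 Hep-ADKTg and 2 Hep-ADKWT cells, and just outside, with a sum of 2, were 1 Hep-ADKTg and 4 Hep-ADKWT cells. The Scrublet doublet score passed 0.2 in 1 Hep-ADKTg and 3 Hep-ADKWT members.

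The 4 marker genes were not shared evenly among the members. In Hep-ADKTg, Ms4a2 was found in 14 of 15 cells (52 UMIs), Cpa3 in 10 (117 UMIs), and Mcpt8 and Cd200r3 in 9 each (104 and 18 UMIs). In Hep-ADKWT, Cd200r3 was found in 49 of 50 cells (267 UMIs), Ms4a2 in 47 (220), Cpa3 in 43 (224) and Mcpt8 in 33 (178). These counts belong to the choice of the cells, and a cell with 0 UMIs at this depth may still express the gene.

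Fcer1a, Gata2, Cyp11a1 and Hdc, which the choice had not used, were found in most members of both libraries. They were listed with earlier results of these data known, so they give no independent check of the label. Fcer1a was found in 13 of 15 Hep-ADKTg members (86.7%) and 48 of 50 Hep-ADKWT members (96%), against 0.0394% of other leukocytes in Hep-ADKTg and 0.159% in Hep-ADKWT. Gata2 was found in 12 Hep-ADKTg and all 50 Hep-ADKWT members. Cyp11a1, which encodes the side-chain cleavage enzyme of steroid synthesis, had the same counts of cells, 12 and 50. Hdc, the enzyme that makes histamine, was found in 10 Hep-ADKTg and 48 Hep-ADKWT members. Of the 11 eosinophil genes, 8 had 0 UMIs in Hep-ADKTg members and 7 in Hep-ADKWT members, among them Epx and Prg2, which encode eosinophil granule proteins. The summed list was nevertheless higher in members, at 139.6 against 34.4 CPM in Hep-ADKTg and 310 against 29.1 CPM in Hep-ADKWT. Its UMIs came mainly from Alox15, found in 4 Hep-ADKTg and 26 Hep-ADKWT members, and from the chemokine receptor gene Ccr3, in 1 and 14, and Siglecf, in 1 and 8. The part of eosinophil RNA in these values was not tested.

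**Figure D1:**
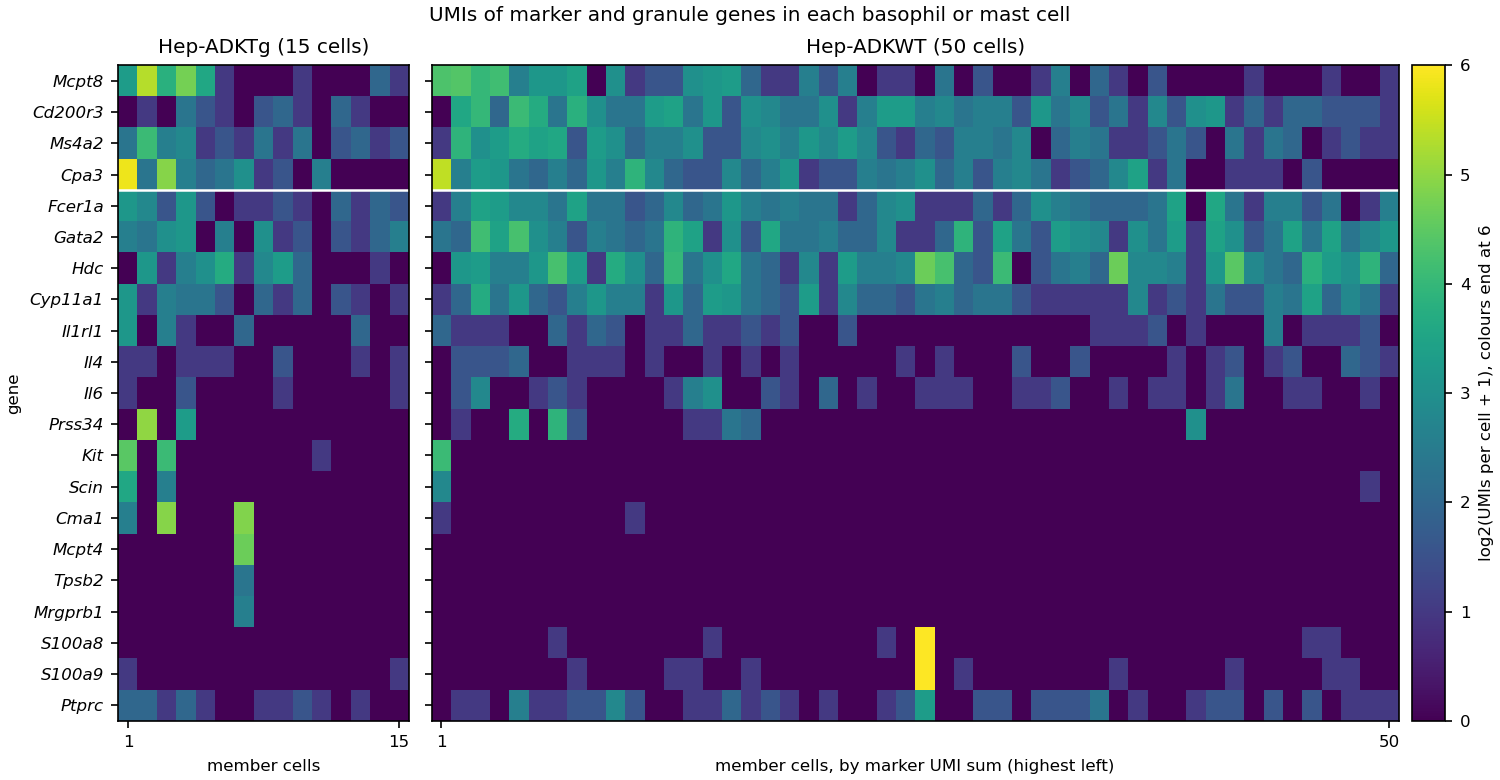
UMIs per cell (log2 of UMIs + 1) of marker and granule genes in each of the 15 Hep-ADKTg (left) and 50 Hep-ADKWT (right) basophils and mast cells, ordered from the highest marker sum. Fcer1a and Gata2 run through nearly all columns, whereas Kit and mast cell proteases are confined to a few, mostly in Hep-ADKTg.

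Most cells had a basophil profile, and a few carried mast cell genes. Of the members, 3 in Hep-ADKTg and 1 in Hep-ADKWT held at least 3 UMIs of Kit and mast cell protease genes, a grouping chosen after the values were seen. These cells supplied 25.3% of all member UMIs in Hep-ADKTg and 2.24% in Hep-ADKWT. In 3 of them, 2 from Hep-ADKTg and 1 from Hep-ADKWT, Kit had 21, 16 and 16 UMIs, Cpa3 had 57, 29 and 42, and Mcpt8 had 9, 13 and 19, with 0 UMIs of Cd200r3. Kit and Mcpt8 were thus counted under the same barcode. The first of these barcodes, from Hep-ADKTg with 13154 UMIs, had a Scrublet score of 0.368, the only Hep-ADKTg member over 0.2, and the part of doublets was not tested. The remaining Hep-ADKTg cell, with only 958 UMIs in all, held 28 UMIs of Cma1 (mast cell chymase), 24 of Mcpt4, 5 of Mrgprb1 and 4 of Tpsb2 (a tryptase), and none of Mcpt8 or Kit.

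Prss34, the second basophil protease, was restricted further. It was found in 2 Hep-ADKTg members, with 31 and 9 UMIs, and in 9 Hep-ADKWT members. These 2 Hep-ADKTg cells also had 39 and 26 UMIs of Mcpt8. In Hep-ADKWT the 9 cells with Prss34 had a median of 8 Mcpt8 UMIs, against a median of 1 in the 41 cells without it. The Mcpt8 values took part in the choice of the cells and are given as a description.

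Another Hep-ADKTg cell entered on Cpa3 alone. It held 5 UMIs of Cpa3 among 9156 UMIs, no Fcer1a, Gata2 or Hdc, 1 UMI of Kit, and 20 UMIs of cell cycle genes. Its inclusion follows from the rule and not from a basophil or mast cell profile.

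The profile of the population was measured as the ratio of summed UMIs, in CPM, between members and other leukocytes of the same library. A gene entered with at least 30 UMIs in Hep-ADKWT members or at least 100 CPM in Hep-ADKWT other leukocytes, which left 1588 genes. A gene of low expression could enter only by being high in the Hep-ADKWT members, so the counts below describe genes that passed and do not support a call. In Hep-ADKTg, 308 genes (19.4%) were at least 2-fold higher and 218 (13.7%) at least 2-fold lower in members. In Hep-ADKWT, 385 genes (24.2%) were at least 2-fold higher and 254 (16%) lower. Of these, 274 higher and 150 lower genes were shared. They were 89.0% and 68.8% of the Hep-ADKTg genes and 71.2% and 59.1% of the Hep-ADKWT genes. These percentages over all genes entered are the background for every list count against other leukocytes below, also where they are not repeated. The balance in Hep-ADKTg depended on scaling: 58.6% of its 2-fold genes were higher by plain CPM, 36.7% with TMM factors and 40.4% with DESeq2 size factors. TMM factors shifted every log2 ratio by -0.48 in Hep-ADKTg and -0.064 in Hep-ADKWT.

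The 25 genes with the highest ratio in Hep-ADKWT, ranked with 20 CPM added to both sides, exceeded other leukocytes 27.3- to 1139-fold there, as their choice required. The Hep-ADKTg library was not used to choose them, and in it all 25 were at least 2-fold higher, 10.4- to 8486-fold, against 19.4% of all genes entered. The highest of these ratios, that of Fcer1a, rests on fewer than 3 UMIs in other leukocytes, so its size is uncertain. Of the 25, 19 were on a list used here. The fixed classes (T, B and NK cells, neutrophils, plasmacytoid dendritic cells, monocytes and macrophages) held by construction no marker UMI of the members. In Hep-ADKTg 23 of the 25 genes, and in Hep-ADKWT all 25, were higher in members than in each of these classes. The exceptions were Ifitm1, an interferon-induced membrane protein gene, and Hdc, which stood at 3282 and 740 CPM in Hep-ADKTg members and at 4625 and 935 CPM in the neutrophils of that library.

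**Figure D2:**
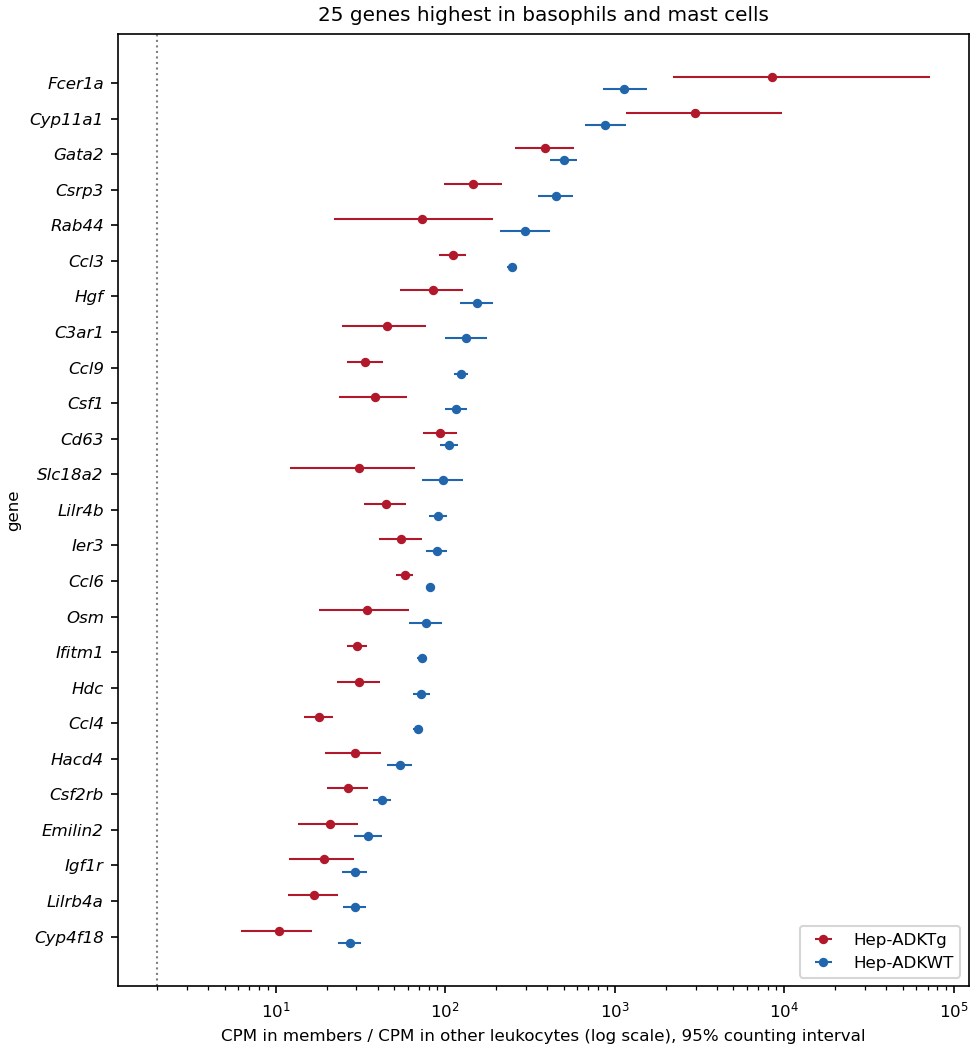
Ratio of CPM in basophils and mast cells to CPM in other leukocytes (log axis) for the 25 leading genes, with 95% counting intervals, in Hep-ADKTg and Hep-ADKWT. Every Hep-ADKTg point lies between 10.4 and 8486, with wider intervals than in Hep-ADKWT because 15 cells against 50 were counted. The highest, Fcer1a, rests on fewer than 3 UMIs in Hep-ADKTg other leukocytes.

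The basophil list was fixed with earlier results of these data known and is given as a description. Of its 18 genes 14 entered, and all 14 were at least 2-fold higher in members of both libraries. The medians were 5.04 in Hep-ADKTg and 6.23 in Hep-ADKWT, beside 0.15 and 0.084 over all genes entered. Genes low in other leukocytes entered only when high in Hep-ADKWT members, so the Hep-ADKWT count is partly fixed. Summed over all 18 genes, the list had 7946 against 280 CPM in Hep-ADKTg and 13434 against 274 CPM in Hep-ADKWT. Of 19 mast cell genes 2 entered, Il1rl1 and Slc18a2, both higher in both libraries and both also known from basophils. Entry was decided in Hep-ADKWT, where 1 member carried mast cell genes, so Kit, Cma1 and Mcpt4 did not enter. Summed over all 19 genes, the mast cell list had 2402 against 47.3 CPM in Hep-ADKTg and 666 against 55.5 CPM in Hep-ADKWT. Kit, the defining receptor of mast cells, had 38 UMIs in 3 Hep-ADKTg members and 16 UMIs in 1 Hep-ADKWT member. Of 11 eosinophil genes only Alox15 entered, and of 10 markers of group 2 innate lymphoid cells only Il1rl1.

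The IgE receptor and its proximal signalling genes were in part specific to these cells. Fcer1a had 40 UMIs (559 CPM, 399 to 761) in Hep-ADKTg members, against 0.0658 CPM in other leukocytes, and 211 UMIs (976 CPM, 849 to 1117) in Hep-ADKWT members, against 0.857 CPM. Fcer1g, the γ chain shared with other Fc receptors, had 1913 against 376 CPM in Hep-ADKTg and 1967 against 380 CPM in Hep-ADKWT. The α chain was thus almost absent from other leukocytes, whereas the shared γ chain was about 5-fold higher. The other leukocytes can include cells with at least 3 marker UMIs that were left out for a Cd3 or Cd79a UMI. Of 11 such Hep-ADKWT cells 10 held Fcer1a, and their part in the 0.857 CPM was not tested. Of 23 genes on this list 10 entered, of which 5 were at least 2-fold higher and 2 lower in Hep-ADKTg, and 5 higher and 1 lower in Hep-ADKWT. Over all genes entered, 19.4% were higher and 13.7% lower in Hep-ADKTg, and 24.2% and 16% in Hep-ADKWT. The higher ones included the adaptors Lat2 (log2 ratios 4.21 and 3.29) and Gab2 (3.27 and 5.34). Lyn, the receptor-linked kinase, did not enter and had log2 ratios of 0.09 in Hep-ADKTg and -0.25 in Hep-ADKWT, and Syk had -0.92 and -0.13.

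Histamine and granule genes were high in both libraries. Hdc had 740 CPM in Hep-ADKTg members against 23.8 CPM in other leukocytes, and 1708 against 23.7 CPM in Hep-ADKWT. Slc18a2, the vesicular amine transporter that loads histamine into granules, had 97.8 against 3.16 CPM in Hep-ADKTg and 329 against 3.40 CPM in Hep-ADKWT. Cd63, a tetraspanin of granule membranes used as a degranulation marker, had 1341 against 14.3 CPM in Hep-ADKTg and 1601 against 15.2 CPM in Hep-ADKWT. Srgn, the core of granule proteoglycans, was higher by smaller ratios, log2 1.85 in Hep-ADKTg and 1.26 in Hep-ADKWT. Of 20 listed granule genes 6 entered. In Hep-ADKTg 5 were at least 2-fold higher and 1 lower, and in Hep-ADKWT 4 were higher and 1 lower. Among all genes entered, 19.4% were higher and 13.7% lower in Hep-ADKTg, and 24.2% and 16% in Hep-ADKWT.

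Chemokines of the CC family led the secreted products. Ccl3, a chemoattractant for monocytes and lymphocytes, was found in 13 of 15 Hep-ADKTg members (0 to 24 UMIs per cell, median 9) and in 49 of 50 Hep-ADKWT members (0 to 99, median 29). Its level was 2081 CPM in Hep-ADKTg members against 18.8 CPM in other leukocytes, and 7339 against 29.6 CPM in Hep-ADKWT, ratios of 111 (91.8 to 133) and 248 (232 to 265). Ccl4, its close relative, was found in 13 Hep-ADKTg members (0 to 30 UMIs, median 6) and 48 Hep-ADKWT members (0 to 214, median 14). The range in Hep-ADKWT shows that some cells held many times the median.

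Ccl6 and Ccl9, rodent chemokines of myeloid cells, were found in 11 and 12 Hep-ADKTg members (median 24 and 6 UMIs) and in 47 and 49 Hep-ADKWT members (median 27.5 and 11). Ccl6 had 4539 CPM in Hep-ADKTg members against 78.7 CPM in other leukocytes, and 6705 against 82.5 CPM in Hep-ADKWT. Of 19 listed chemokines 6 entered, and these 4 were at least 2-fold higher in both libraries. Ccl5, a product of T and NK cells, went the other way, with 27.9 against 2557 CPM in Hep-ADKTg and 37.0 against 3115 CPM in Hep-ADKWT, as did Xcl1.

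Type 2 cytokines and growth factors were detected in part of the cells. Il4 was found in 8 Hep-ADKTg members (126 CPM, against 16.0 in other leukocytes) and 23 Hep-ADKWT members (162 against 19.1 CPM). Il6 was found in 4 Hep-ADKTg members (69.8 against 0.132 CPM) and 26 Hep-ADKWT members (231 against 0.798 CPM). Il13 had 0 UMIs in Hep-ADKTg members, which is no evidence of absence among 71608 UMIs, and 1 UMI in Hep-ADKWT members. Csf1, the macrophage colony-stimulating factor, was found in 10 Hep-ADKTg members (307 against 8.0 CPM) and 43 Hep-ADKWT members (1046 against 9.01 CPM). Hgf, the hepatocyte growth factor, was found in 11 Hep-ADKTg members (391 against 4.61 CPM) and 43 Hep-ADKWT members (537 against 3.5 CPM). Osm, the interleukin-6 family cytokine oncostatin M, was found in 5 Hep-ADKTg members (182 against 5.23 CPM) and 35 Hep-ADKWT members (467 against 6.09 CPM). Of 24 listed genes 6 entered, and these 5 other than Il13 were at least 2-fold higher in both libraries, whereas Tgfb1 lay within 2-fold.

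Of 20 listed genes for lipid mediators 3 entered, all at least 2-fold higher in members of both libraries. Alox5, the 5-lipoxygenase, had 265 against 1.55 CPM in Hep-ADKTg and 148 against 2.32 CPM in Hep-ADKWT. Alox5ap, its activating protein, had log2 ratios of 2.72 in Hep-ADKTg and 4.0 in Hep-ADKWT. Alox15, a lipoxygenase also known from eosinophils, had 83.8 against 0.0987 CPM in Hep-ADKTg and 180 against 0.266 CPM in Hep-ADKWT. Others were sparse or at 0. Lta4h, the leukotriene A4 hydrolase, had 3 UMIs in Hep-ADKTg and 8 UMIs in Hep-ADKWT members. Hpgds, the prostaglandin D synthase of mast cells, had 1 UMI in Hep-ADKTg and 3 UMIs in Hep-ADKWT members, and Ltc4s, the leukotriene C4 synthase, had 0 in both.

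Receptors for the interleukin-3 family and the interleukin-1 family were detected in members, some of them in only part of the cells. Csf2rb, the β chain shared by the receptors of interleukin-3, interleukin-5 and GM-CSF, had 824 against 30.8 CPM in Hep-ADKTg and 1425 against 33.7 CPM in Hep-ADKWT. Il3ra, the α chain of the interleukin-3 receptor, had 3 UMIs in 2 Hep-ADKTg members and 21 UMIs in 16 Hep-ADKWT members. Il1rl1, the receptor for interleukin-33, had 279 against 1.38 CPM in Hep-ADKTg and 208 against 1.71 CPM in Hep-ADKWT. It was found in 5 Hep-ADKTg and 27 Hep-ADKWT members. Of its 20 Hep-ADKTg UMIs, 8, 5 and 3 lay in the 3 cells with mast cell genes. Il18r1 and Il18rap, the chains of the interleukin-18 receptor, had log2 ratios of 2.97 and 3.21 in Hep-ADKTg and of 3.40 and 3.78 in Hep-ADKWT. Of 38 listed cytokine receptors 10 entered, of which 5 were at least 2-fold higher and 2 lower in Hep-ADKTg, and 6 higher and 3 lower in Hep-ADKWT. Ifngr1, a chain of the interferon-γ receptor, was among the lower ones (-1.07 and -1.87). Among all genes entered, 19.4% were higher and 13.7% lower in Hep-ADKTg, and 24.2% and 16% in Hep-ADKWT.

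Receptors for chemoattractants followed the same pattern. C3ar1, the receptor of complement fragment C3a, had 209 against 4.64 CPM in Hep-ADKTg and 347 against 2.60 CPM in Hep-ADKWT. Ccr1 and Cxcr2, chemokine receptors, had log2 ratios of 4.24 and 3.52 in Hep-ADKTg and of 4.59 and 4.43 in Hep-ADKWT. Cxcr2 also served to define the neutrophil class, which held 193 of 5081 other leukocytes in Hep-ADKTg and 301 of 8801 in Hep-ADKWT. Its ratio over all other leukocytes is thus no comparison with neutrophils. Of 41 listed genes 9 entered, with 6 at least 2-fold higher and 1 lower in Hep-ADKTg, and 7 higher and 1 lower in Hep-ADKWT. The shares over all genes entered were 19.4% higher and 13.7% lower in Hep-ADKTg, and 24.2% and 16% in Hep-ADKWT. Ptger3, the prostaglandin E receptor EP3, had 14 CPM in Hep-ADKTg members and 125 CPM in Hep-ADKWT members, against at most 0.502 CPM in other leukocytes, but did not enter.

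Inhibitory and paired receptors were led by Lilr4b and Lilrb4a, leukocyte immunoglobulin-like receptors. Lilr4b had 782 against 17.5 CPM in Hep-ADKTg and 1624 against 17.9 CPM in Hep-ADKWT. These near-identical genes could share reads, so the split between them is uncertain. Cd200r1, the inhibitory CD200 receptor, had log2 ratios of 3.79 in Hep-ADKTg and 2.95 in Hep-ADKWT. Of 30 listed genes 7 entered, with 6 at least 2-fold higher and 0 lower in Hep-ADKTg, and 6 higher and 1 lower (Cd48) in Hep-ADKWT. The shares over all genes entered were 19.4% higher and 13.7% lower in Hep-ADKTg, and 24.2% and 16% in Hep-ADKWT.

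Adhesion genes were mixed. Itga2b, the integrin αIIb best known from platelets, had 154 against 0.856 CPM in Hep-ADKTg and 287 against 1.14 CPM in Hep-ADKWT, and was found in 8 and 31 members. Cd9, a tetraspanin also found on platelets, had log2 ratios of 3.80 in Hep-ADKTg and 4.37 in Hep-ADKWT. Of 32 listed genes 21 entered, and 12 of these in Hep-ADKTg and 13 in Hep-ADKWT lay within 2-fold. The list medians, 0.020 in Hep-ADKTg and 0.75 in Hep-ADKWT, stood beside medians of 0.15 and 0.084 over all genes entered. The Hep-ADKTg medians of this list and of the transcription factors lie closer to 0 than the TMM shift of -0.48, so their sign turns with that scaling.

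Gata2 led the transcription factors. It had 698 CPM in Hep-ADKTg members against 1.81 CPM in other leukocytes, a ratio of 386 (258 to 576), and 1379 against 2.76 CPM in Hep-ADKWT, a ratio of 499 (414 to 602). Lmo4, a LIM domain cofactor, had log2 ratios of 2.95 in Hep-ADKTg and 2.76 in Hep-ADKWT, but 61.5% of its Hep-ADKTg UMIs came from 1 cell. Of 48 listed factors 18 entered. In Hep-ADKTg 7 were at least 2-fold higher and 3 lower (median 0.35), and in Hep-ADKWT 9 were higher and 6 lower (median 1.46). Beside these counts, 19.4% of all genes entered were higher and 13.7% lower in Hep-ADKTg, and 24.2% and 16% in Hep-ADKWT. Id2, which is high in innate lymphocytes, was lower in both (-1.58 and -1.77).

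**Figure D3:**
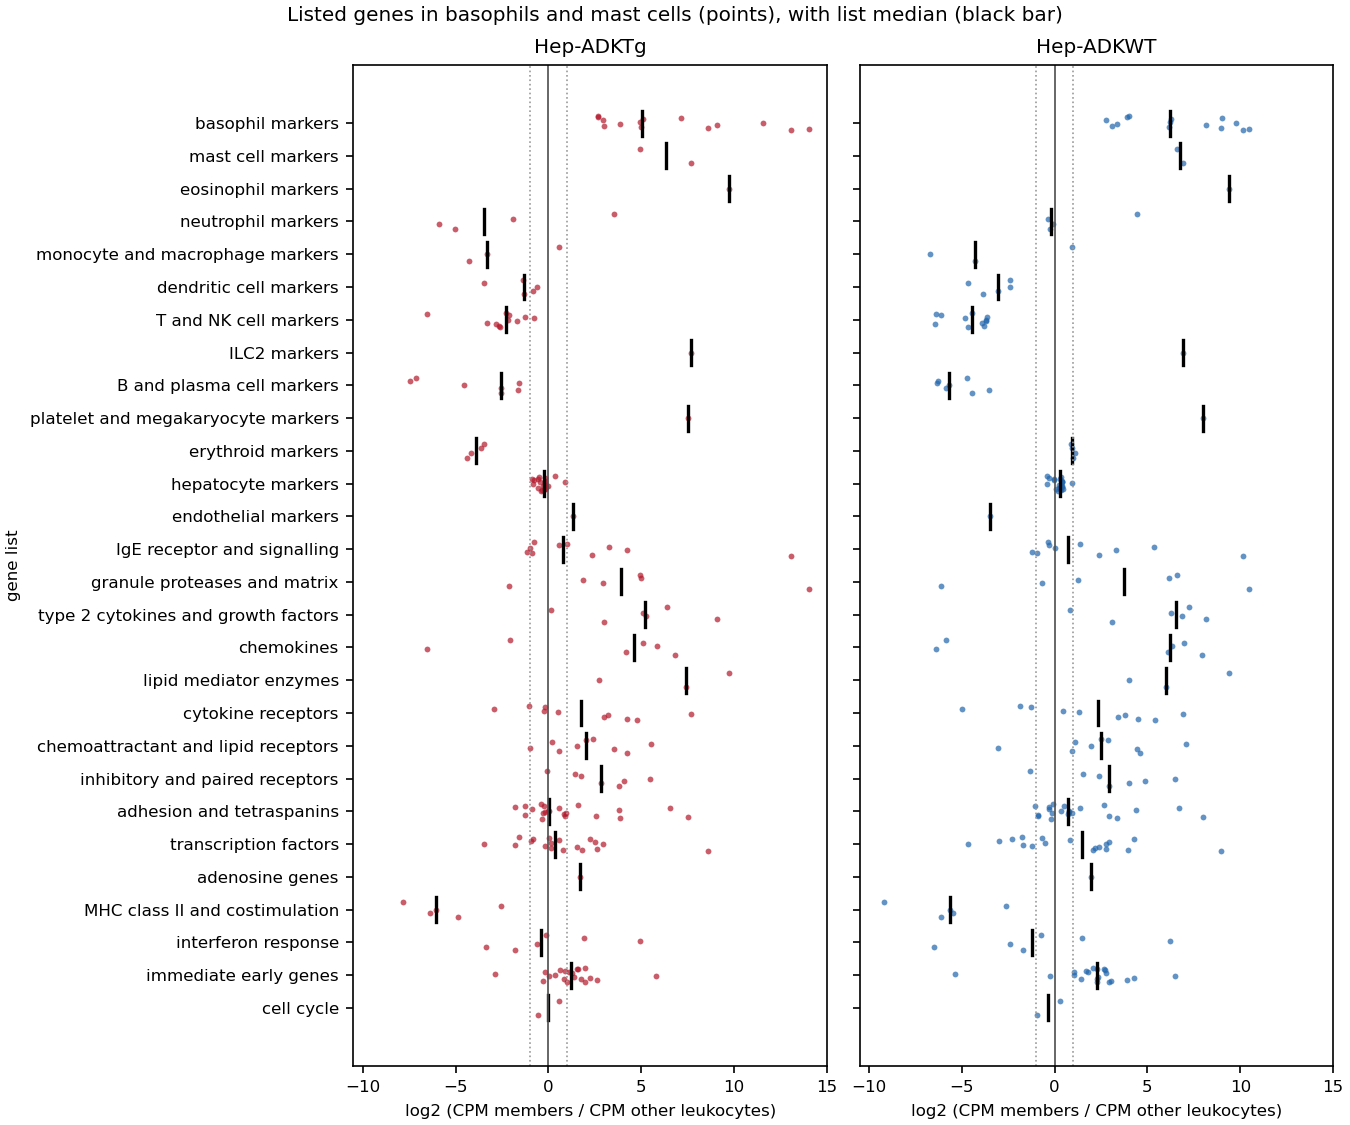
Log2 ratio of CPM in basophils and mast cells over other leukocytes for the genes of each list that entered (points) with the list median (black bar), in Hep-ADKTg (left) and Hep-ADKWT (right). Points of the basophil list lie to the right of 0, chemokines lie on both sides, and the MHC class II, T and NK cell and B and plasma cell lists lie mostly to its left.

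Some genes outside these pathways were as selective. Cyp11a1 had 489 against 0.165 CPM in Hep-ADKTg and 907 against 1.03 CPM in Hep-ADKWT. Csrp3, a LIM protein gene best known from striated muscle, had 517 against 3.52 CPM in Hep-ADKTg and 810 against 1.80 CPM in Hep-ADKWT, and was found in 11 and 39 members. Rab44, a large Rab GTPase gene, had 69.8 against 0.955 CPM in Hep-ADKTg and 319 against 1.08 CPM in Hep-ADKWT. Against the highest of the 6 other classes, 7 of the 25 genes in Hep-ADKTg stayed at least 10-fold higher: Gata2, Fcer1a, Cd63, Cyp11a1, Csrp3, Hgf and Slc18a2. In Hep-ADKWT the same 7 and Ccl3, Ccl4, Ier3 and Rab44 did, 11 in all.

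**Figure D4:**
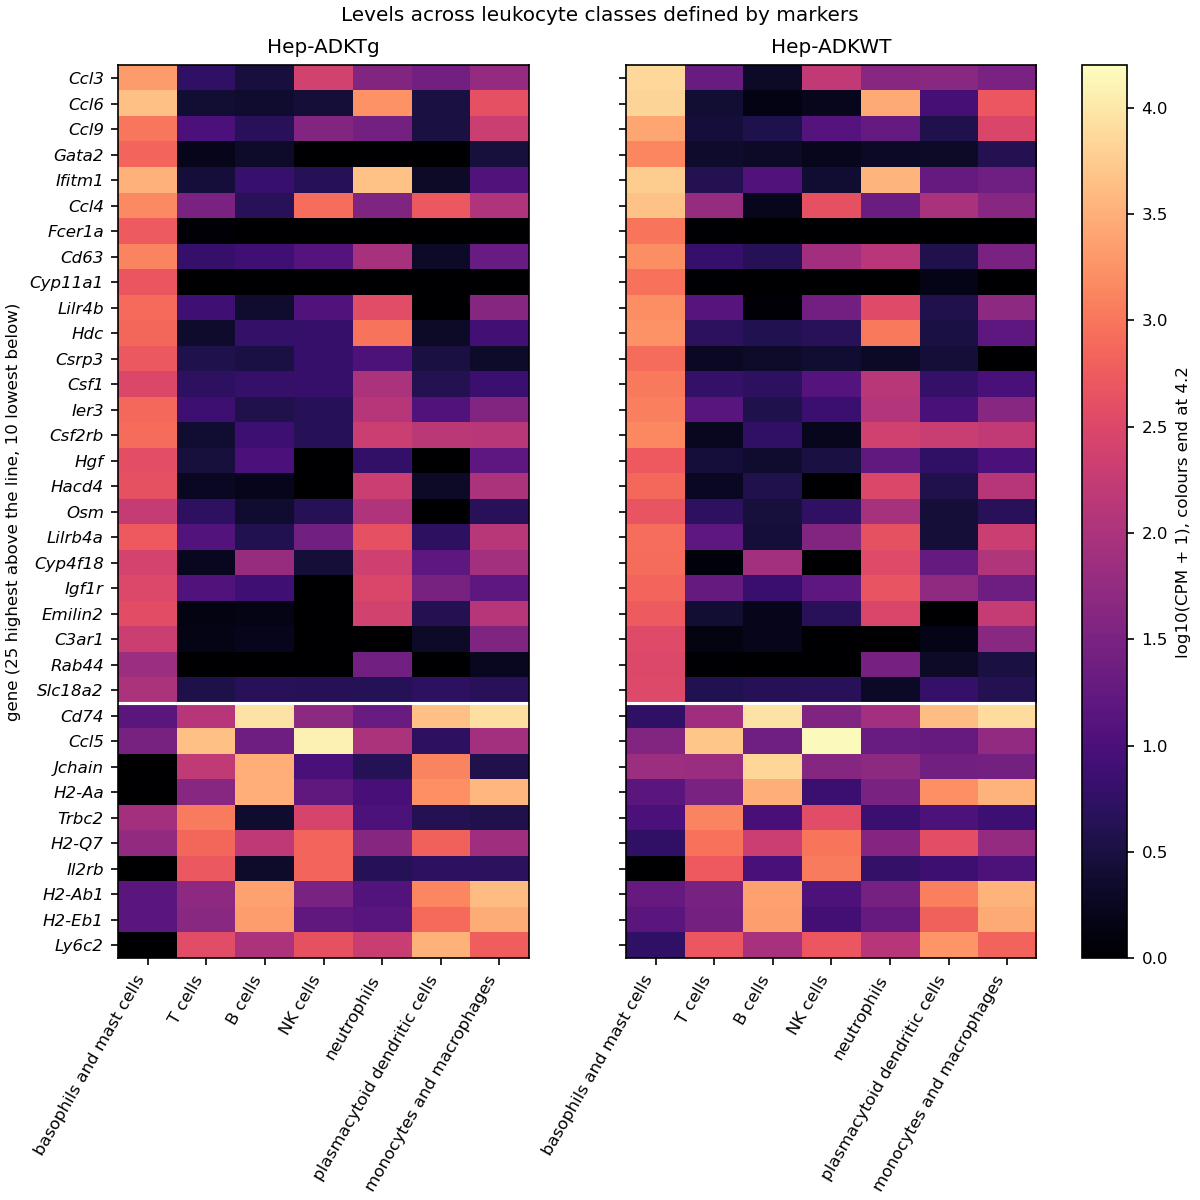
Levels (log10 of CPM + 1) of the 25 leading and 10 lowest genes in basophils and mast cells and in 6 leukocyte classes of the same library, Hep-ADKTg left and Hep-ADKWT right. Fcer1a, Gata2 and Cyp11a1 are bright in the first column alone, whereas Hdc and Ifitm1 are bright in neutrophils too, and Cd74 is nearly dark in the first column.

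Immediate early genes, which respond within minutes to stimulation and also to tissue digestion, were higher in members of both libraries. Of 26 listed genes 20 entered, and 12 in Hep-ADKTg and 18 in Hep-ADKWT were at least 2-fold higher, with 1, Dusp2, lower in each. Among all genes entered, 19.4% were higher and 13.7% lower in Hep-ADKTg, and 24.2% and 16% in Hep-ADKWT. The list medians were 1.19 in Hep-ADKTg and 2.30 in Hep-ADKWT, beside 0.15 and 0.084 over all genes entered. Ier3, an early response gene that limits cell death, had 768 against 14 CPM in Hep-ADKTg and 1171 against 13.1 CPM in Hep-ADKWT. Jun, a subunit of the AP-1 factor, had log2 ratios of 2.60 in Hep-ADKTg and 3.91 in Hep-ADKWT. All cells passed through the same digestion, and its part in these levels was not tested.

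Antigen presentation and lymphocyte genes were low. Cd74, the MHC class II invariant chain, had 1 UMI in members of each library, 14 CPM in Hep-ADKTg against 3159 in other leukocytes and 4.63 in Hep-ADKWT against 2707. All 5 MHC class II and costimulation genes that entered, of 13 listed, were at least 2-fold lower in both libraries, with medians of -6.03 in Hep-ADKTg and -5.65 in Hep-ADKWT. Il2rb, the interleukin-2 receptor β chain, had 0 UMIs in members of both libraries, at least 7.59-fold lower than in other leukocytes in Hep-ADKTg and at least 31.3-fold lower in Hep-ADKWT at a floor of 3 counts over the group. All 10 genes named as lowest in Hep-ADKWT were also at least 2-fold lower in Hep-ADKTg, against 13.7% of genes entered. They included H2-Q7, whose reads can be shared with other MHC class I genes.

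Markers of other cell types were checked in full. T and NK cell genes were at least 2-fold lower in members for 10 of 11 entered in Hep-ADKTg and 11 of 11 in Hep-ADKWT, and B and plasma cell genes for 7 of 7 in both. Of the monocyte and macrophage list 2 of 3 genes entered were lower in both libraries. The choice removed cells with Cd3 or Cd79a UMIs, so low levels of genes that travel with them follow in part from it. Hepatocyte genes that entered, 20 of 29, all lay within 2-fold of the other leukocytes in both libraries (medians -0.26 in Hep-ADKTg and 0.30 in Hep-ADKWT). Dendritic cell genes were lower for 3 of 5 entered in Hep-ADKTg and 5 of 5 in Hep-ADKWT. Interferon response genes were mixed: of 6 entered, 2 were higher in both libraries (Ifitm1 and Ifitm2), and 2 in Hep-ADKTg and 3 in Hep-ADKWT were lower. Both cell cycle genes that entered, of 15 listed, lay within 2-fold in both libraries. Of the platelet list only Itga2b entered, and of the endothelial list only Dnase1l3, which was higher in Hep-ADKTg (1.32) through 1 cell and lower in Hep-ADKWT (-3.46).

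Single cells decided a few of these values. The 4 erythroid genes that entered were all at least 2-fold lower in Hep-ADKTg members, whereas 1 was higher and 3 lay within 2-fold in Hep-ADKWT. Of the 4 neutrophil genes that entered, 1 (Cxcr2) was higher and 3 lower in Hep-ADKTg, and 1 was higher and 0 lower in Hep-ADKWT. In Hep-ADKWT 1 member of 8917 UMIs held 5264 of the 5414 haemoglobin UMIs of the whole group (97.2%). Haemoglobin genes stood at 182 CPM in Hep-ADKTg members against 2628 CPM in other leukocytes, and at 25054 CPM in Hep-ADKWT members against 12731 CPM, but without that cell the Hep-ADKWT members had 724 CPM. Another Hep-ADKWT member held 519 of the 533 UMIs of the neutrophil genes S100a8 and S100a9 (97.4%), and without it these fell to 67.0 CPM, against 2466 CPM with it. Gzmb, the granzyme B gene, had 84.7% of its 72 Hep-ADKTg UMIs in 1 cell.

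Adenosine genes were of interest because the study altered adenosine kinase. Adk stood at 433 CPM (294 to 614) in Hep-ADKTg members, from 31 UMIs, against 136 CPM in other leukocytes, and at 171 CPM (121 to 236) in Hep-ADKWT members, from 37 UMIs, against 43.9 CPM. The log2 ratios of members over other leukocytes were 1.67 in Hep-ADKTg and 1.96 in Hep-ADKWT, so the higher level in members was seen in both genotypes. Adk was the only 1 of 22 listed adenosine genes to enter. Adora2b, the low-affinity A2B receptor, did not enter but had 5 UMIs in Hep-ADKTg members (69.8 against 1.74 CPM) and 27 in Hep-ADKWT members (125 against 1.45 CPM). Adora3, the A3 receptor known from rodent mast cells, had 2 UMIs in Hep-ADKTg and 4 in Hep-ADKWT members. Nt5e and Entpd1, the ectoenzymes that make adenosine from ATP outside cells, had 0 UMIs in members of both libraries. For Entpd1 this was at least 2.38-fold lower than in Hep-ADKWT other leukocytes, and for the rest no direction could be given.

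Members of the libraries were then set against each other. With at least 20 UMIs over both, 2228 genes entered, of which 261 (11.7%) were at least 2-fold higher and 328 (14.7%) at least 2-fold lower in Hep-ADKTg members. The share of higher genes among these was 44.3% by plain CPM, 24.4% with TMM factors and 22.1% with DESeq2 factors, which shifted every log2 ratio by -0.31 and -0.35. The median over all genes entered was -0.14. All 27 hepatocyte genes that entered were at least 2-fold higher in Hep-ADKTg members, with a median of 2.07. Hepatocyte UMIs per member were 28 to 563 (median 118) in Hep-ADKTg and 10 to 345 (median 20) in Hep-ADKWT, and the part of this RNA in other genes' ratios was not tested.

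The leading genes had lower levels in Hep-ADKTg members. All 25 had log2 ratios below 0, between -2.19 and -0.26 with a median of -0.89, and 11 were at least 2-fold lower, against 14.7% of genes entered. For 21 of the 25 the counting interval lay below equality. Because the 25 were ranked in Hep-ADKWT, their direction is partly fixed by that choice. Without the cells with mast cell genes all 25 still lay below 0 (median -0.87), 8 of them at least 2-fold lower. Ccl3 was 3.53-fold lower (2.98 to 4.2) and Ccl4 3.17-fold lower (2.59 to 3.91) in Hep-ADKTg members. Cd63 was closer to equal, at 0.837 (0.661 to 1.05) of its Hep-ADKWT level. The list counts that follow stand beside 11.7% higher and 14.7% lower over all 2228 genes entered. The basophil list had a median of -0.86 over 16 genes, of which 2 were at least 2-fold higher, Prss34 among them (1.42), and 6 lower. Of 4 chemokines that entered, 3 were at least 2-fold lower and 0 higher, and of 6 type 2 cytokines and growth factors, 4 were lower and 0 higher. Other lists went the other way. Of 7 granule genes 4 were at least 2-fold higher and 2 lower (median 1.42). Of 4 interferon response genes 3 were higher and 0 lower (1.40), and of 5 mast cell genes 3 were higher and 1 lower (2.84). The higher granule and mast cell genes rested on few Hep-ADKTg cells. The highest cell for each gene held 100% of Mcpt4, 84.7% of Gzmb and 77.5% of Prss34 UMIs. Cma1 and Kit lay in 3 cells each, and Cma1 and Mcpt4 are on both lists. Immediate early genes had a median of -0.85 over 20 genes, with 7 at least 2-fold lower, beside the median of -0.14 over all genes.

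The marker genes themselves, whose values chose the cells, diverged. Ms4a2 had 726 CPM in Hep-ADKTg members and 1018 CPM in Hep-ADKWT members, a log2 ratio of -0.49. Cd200r3 had 251 CPM in Hep-ADKTg members and 1236 CPM in Hep-ADKWT members, a log2 ratio of -2.30, or -1.91 without the cells with mast cell genes. Mcpt8 had 1452 CPM in Hep-ADKTg and 824 CPM in Hep-ADKWT, a log2 ratio of 0.82, or 1.03 without those cells. However, 2 Hep-ADKTg cells held 62.5% of its UMIs there, and the median per member was 1 UMI in both libraries. Members without Prss34 had 649 CPM of Mcpt8 in Hep-ADKTg and 614 CPM in Hep-ADKWT. Cpa3 had 1634 CPM in Hep-ADKTg and 1037 CPM in Hep-ADKWT. Its log2 ratio of 0.66 turned to -0.94 without the cells with mast cell genes. The higher Cpa3 of Hep-ADKTg members thus came from 3 cells.

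**Figure D5:**
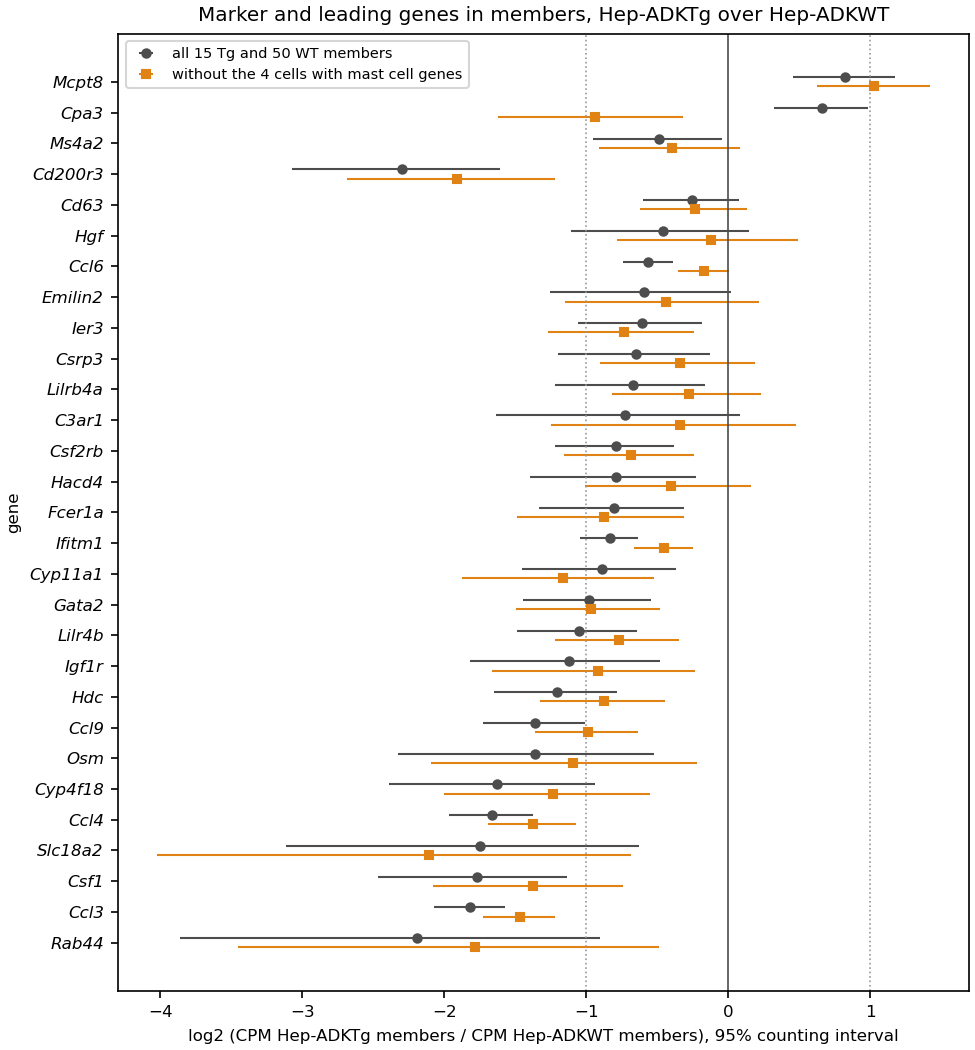
Log2 ratio of CPM in Hep-ADKTg over Hep-ADKWT basophils and mast cells for the marker genes and the 25 leading genes, with 95% counting intervals, for all members and without the cells with mast cell genes. All 25 leading genes lie left of 0 in both sets, and Cpa3 changes side.

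The haemoglobin genes lay furthest apart among the lists: the 5 erythroid genes that entered had a median of -6.79, with 4 at least 2-fold lower in Hep-ADKTg members. Hba-a1 had 2 UMIs in Hep-ADKTg members and 1364 in Hep-ADKWT members, of which 98.6% lay in the 1 cell described above. Haemoglobin genes were left out of the ranking that named the following genes. Cma1 had 62 UMIs (866 CPM) in Hep-ADKTg members and 2 UMIs (9.26 CPM) in Hep-ADKWT members, the Hep-ADKTg UMIs lying in 3 cells. Saa2, Mup17, Wfdc21 and Mat1a, of which Saa2, Mup17 and Mat1a are hepatocyte genes, had 1033, 838, 782 and 545 CPM in Hep-ADKTg members and 74.0, 64.8, 83.3 and 55.5 CPM in Hep-ADKWT members. Mup genes are near-identical copies, so the value of Mup17 is uncertain. At the other end, S100a8 and S100a9 had 0 and 27.9 CPM in Hep-ADKTg and 1152 and 1314 CPM in Hep-ADKWT, where 1 cell held most of them. Rgs1, a regulator of G protein signalling, had 223 CPM in Hep-ADKTg and 1166 CPM in Hep-ADKWT. Hk2 (hexokinase 2) and Spry2 (an inhibitor of growth factor signalling) had 41.9 CPM each in Hep-ADKTg, from 3 UMIs each, and 287 and 227 CPM in Hep-ADKWT. With 15 cells in 1 library, these differences have no replicate check, and differences between genotypes, animals and captures cannot be told apart.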

How the data were processed

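Single-cell RNA-seq was analysed from 2 libraries, 1 per genotype. Per the submitters' processing notes, the tools were Cell Ranger 6.1.2, Seurat 4.0.2 and R 4.1.0, with the genome build GRCm38/mm10. The matrix headers name Cell Ranger 5.0.1. The deposited matrices list, per the file headers, an integer for each gene in each barcode, the authors' count of UMIs. The series text names SoupX correction of ambient RNA and Harmony integration; since the deposited counts are whole, they were treated as uncorrected. No other sample columns were present (0).

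Barcodes were removed below 500 UMIs or 200 genes, or above 20% mitochondrial UMIs. UMIs were summed over cells per library and divided by the summed total (CPM). Ratios carry exact conditional binomial intervals, CPM exact Poisson intervals and shares Clopper-Pearson intervals, all 95% and for counting error only. A fold against a sum of 0 used a floor of 3 counts per group. No test was made, since each genotype has 1 library. The calculation was tested on simulated data. Doublets were scored with Scrublet; its automatic threshold marked 0 cells in either library and so did not work, and no cell was removed, with a score of at most 0.2 as an alternative. The other alternatives were TMM (edgeR 4.0.16) and DESeq2 1.42.0 factors, filters on counts, marker sums and cells, thinning, and totals or means computed otherwise.

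Genes named in the text were the 25 highest and 10 lowest ratios in Hep-ADKWT, members of gene lists with at least 30 UMIs, and the 5 highest and 5 lowest Hep-ADKTg over Hep-ADKWT. These rankings left out marker, haemoglobin, immunoglobulin, mitochondrial, ribosomal protein and predicted genes; others named were chosen after their values were seen. The members, the marker genes and the 28 gene lists were chosen with earlier results of these data known. Of 32285 identifiers 32158 were found in GENCODE M21. Scrublet ran in scanpy 1.11.5. R was version 4.3.3 and Python 3.11.15, with scipy 1.17.1 for intervals, matplotlib 3.10.9 for plots, pandas 2.3.3 and numpy 2.4.6.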

Additional observations from a re-analysis of the deposited data

Results flagged for a closer look

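Several genes stood on opposite sides of equality between members and other leukocytes in the 2 libraries, with intervals that excluded 1 in each. These differences were not tested, because there was 1 library per genotype. Of the haemoglobin genes, Hba-a1 had a log2 ratio of -4.41 in Hep-ADKTg and 0.99 in Hep-ADKWT, Hba-a2 had -4.17 and 1.10, Hbb-bs had -3.64 and 0.93, and Hbb-bt had -3.47 and 0.87. The positive Hep-ADKWT values rest on the 1 cell that held 97.2% of the haemoglobin UMIs.

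The major urinary protein genes of hepatocytes differed in the same way by small amounts: Mup3 had -0.47 in Hep-ADKTg and 0.38 in Hep-ADKWT, and Mup11 had -0.20 and 0.38. Dnase1l3, a nuclease gene of liver endothelium, had 1.32 in Hep-ADKTg and -3.46 in Hep-ADKWT, and all 14 of its Hep-ADKTg UMIs lay in 1 cell. Gzmb had 2.92 in Hep-ADKTg and -0.66 in Hep-ADKWT, with 84.7% of the Hep-ADKTg UMIs in 1 cell. Itga4, an integrin α chain, had 0.87 in Hep-ADKTg and -0.89 in Hep-ADKWT; 1 cell held 51.9% of its UMIs in Hep-ADKTg and 1 cell held 61.3% in Hep-ADKWT.

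Cells with the marker genes also lay outside the population described. In Hep-ADKTg 2 and in Hep-ADKWT 11 cells had at least 3 marker UMIs but were left out for a Cd3 or Cd79a UMI. Those with a Ptprc UMI count among the other leukocytes. Of the 11 Hep-ADKWT cells, 10 held Fcer1a and all 11 held Gata2, 4 had a single lymphoid UMI, and 2 had a Scrublet score over 0.2. Their totals ran from 3029 to 28190 UMIs. Whether they are doublets was not tested.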

How the results depend on the processing

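Of 88 values for single genes between the genotypes under other settings, 84 moved by less than counting error and 4 by more. Of 420 values for single genes against other leukocytes in Hep-ADKWT, 372 moved by less, 47 by more, and 1 reversed. Of 293 list medians in Hep-ADKWT, 263 moved by at most 1 on the log2 scale, 27 by more, and 3 reversed. A reversal was counted only where the sign turned and the main log2 value was at least 1 in absolute size. Sign changes of smaller main values are counted among the other groups. The reversals were Jchain in Hep-ADKWT (0.85 against other leukocytes without Cd3 or Cd79a UMIs; the cause was not tested), the chemokine median in Hep-ADKWT (-2.60 there and -0.079 with no filter on low counts) and the transcription factor median in Hep-ADKWT (-0.11 with no filter).

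Thinning to 1000 UMIs, without the cells below that depth, gave 5 Hep-ADKTg members and a ratio of leukocyte shares of 0.265. Genes at least 2-fold higher in Hep-ADKTg members than in other leukocytes numbered 201 with TMM factors, 695 with a minimum of 10 UMIs and 2497 with no filter, and lower ones 347, 363 and 723. In Hep-ADKWT the higher ones numbered 859 with the minimum of 10 UMIs and 2110 with no filter, and the lower ones 395 against leukocytes without Cd3 or Cd79a UMIs and 1879 with no filter. Between genotypes, the genes higher in Hep-ADKTg members numbered 173 with DESeq2 factors, 1114 with no filter and 85 with a minimum of 50 UMIs. Lower ones numbered 568 with TMM factors, 611 with DESeq2 factors, 749 with no filter and 114 with the minimum of 50 UMIs. Filters change how many genes enter, and scaling shifts all ratios together. The erythroid median in Hep-ADKWT was 0.96, and -4.10 without members of Scrublet score over 0.2.

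Alternatives that left out the cells with mast cell genes or the cell with neutrophil genes were chosen after seeing the data. No paired analysis was possible because each genotype has 1 library and no test was made. A member gene with under 3 UMIs could not be told from none.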
